A study of Triticum aestivum with 24 samples.

Results

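Glucose-6-phosphate dehydrogenase was read on the wheat array by 3 control probe sets, AFFX-Ta_G-6-PDH_5_s_at, AFFX-Ta_G-6-PDH_M_s_at and AFFX-Ta_G-6-PDH_3_s_at. They were chosen by the start of their identifier, and no other of the array's 61290 probe sets carried it. They lie toward the 5' end, the middle and the 3' end of one target sequence and are called the 5', middle and 3' probe sets here. They are not replicates of each other, because they read the same target in the same RNA. The suffix _s_at marks probes shared by several sequences, and wheat is hexaploid, so the signal can sum copies of the gene that cannot be told apart.

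Expression was measured on 24 Affymetrix wheat arrays, in 8 groups of 3, with total RNA of the part of the second leaf sheath on which Hessian fly larvae feed. Of the 2 wheat lines, Molly has the R gene H13 and resists the larvae (an incompatible interaction), whereas the larvae establish on susceptible Newton (a compatible one). Seedlings at the 2-leaf stage were sampled at 6, 12 and 24 h after egg hatch when infested, and at 12 h alone when uninfested. The uninfested group of a line therefore served all 3 times, so the comparisons of a line share control arrays, and those at 6 and 24 h also hold plant age and time of day. Infested replicates are named as biological in the sample titles. Uninfested ones carry a number alone, so p-values against them measure the spread between arrays, which may be technical.

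Glucose-6-phosphate dehydrogenase catalyses the first and committed step of the oxidative pentose phosphate pathway, the oxidation of glucose-6-phosphate, and reduces NADP to NADPH. NADPH supplies reducing power for biosynthesis, for the regeneration of glutathione and for the NADPH oxidases that make superoxide in plant defence. Plants have cytosolic and plastid forms of the enzyme, and the array files do not say which of them the probe sets read.

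The values are MAS5 signals in linear units, scaled by the authors to the same trimmed mean on every array. All 3 probe sets were far above background. Their lowest signal on any array was 555, and the 8 tag controls, which match no wheat transcript, reached 85.0 on the brightest array. Of 36 probe sets for 6 genes of green tissue, 15 had a geometric mean over all arrays above that tag signal, with at least 1 for each gene. The other 21 were dim, and 19 of these were among the 28 for rbcl. Of 14 probe sets for seed storage proteins and inhibitors, 1 was above it, at 141.8. Signal of the control probe set for 18S ribosomal RNA had lower means in infested groups, at 1534 to 2796 against 5269 and 6581 in uninfested Molly and Newton. Molly 24 h replicate 3, at 4208, was nonetheless above uninfested Molly replicate 1, at 3943. The part of the 18S signal in the results below was not tested. In bulk tissue, a change in RNA per cell and a change in the make-up of the cells cannot be told apart.

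In Molly, signal of all 3 probe sets rose by 6 h after hatch and was still raised at 12 h. The 3' probe set read 4124, 3919.8 and 3961 on the uninfested arrays, 6803, 6796 and 6412 at 6 h, and 6302, 5836 and 5787 at 12 h. On the middle probe set the uninfested arrays read 3022, 2869 and 2852, the 6 h arrays 4379, 5505 and 5405, and the 12 h arrays 4927, 5076 and 4643. Every infested array at these times was above every uninfested one on both.

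The 5' probe set was dimmer and showed the same order. It read 877, 1017 and 792 on uninfested Molly arrays, 1536, 2076 and 1825 at 6 h, and 1819, 1627 and 1831 at 12 h. Again no infested array overlapped the uninfested ones.

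At 6 h the log2 change from uninfested Molly was 0.74 ± 0.13 (SE, n = 3 arrays a group) at the 3' end, a 1.67-fold rise, with an adjusted p of 8.23e-05 in limma. It was 0.80 ± 0.17 in the middle, with an adjusted p of 0.000637, and 1.01 ± 0.19 at the 5' end, with an adjusted p of 0.000243. All 3 probe sets were thus called higher, in a comparison in which 18.3% of the 36722 tested probe sets were called higher and 24.8% had every infested array above every uninfested one. Adjusted p-values come from a fit to all tested probe sets, with Benjamini-Hochberg adjustment and a threshold of 0.05, and "rose" and "fell" are used of changes past it. The 3 members differed little in their place among all tested probe sets, since 14.6%, 13.4% and 9.94% of these had a larger upward change than the 3', middle and 5' probe sets.

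At 12 h all 3 probe sets were called higher again, where 16.4% of tested probe sets were called higher and 23.4% did not overlap upward. The changes were 1.49-fold at the 3' end (log2 0.58 ± 0.13, adjusted p = 0.00108), 1.68-fold in the middle (log2 0.74 ± 0.17, adjusted p = 0.00143) and 1.97-fold at the 5' end (log2 0.98 ± 0.19, adjusted p = 0.000416).

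By 24 h the Molly arrays had spread out, and no probe set passed the test. The 3' probe set read 5451, 4855 and 3973, the middle one 4716, 3588 and 3331, and the 5' one 1641, 989.9 and 1158. Replicate 1 was the highest on all 3. The 3' and 5' values overlapped those of uninfested Molly, and the middle values did not. The log2 changes were 0.24 (95% interval -0.022 to 0.50, adjusted p = 0.187), 0.40 (0.049 to 0.74, adjusted p = 0.0929) and 0.47 (0.073 to 0.87, adjusted p = 0.0815) at the 3' end, middle and 5' end. In that comparison 11.9% of tested probe sets were called higher and 18.1% did not overlap upward. Without replicate 3 of this group the 3' change was 0.36 (adjusted p = 0.0463), and without replicate 2 the 5' change was 0.63 (adjusted p = 0.0343), both past the threshold.

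**Figure D1:**
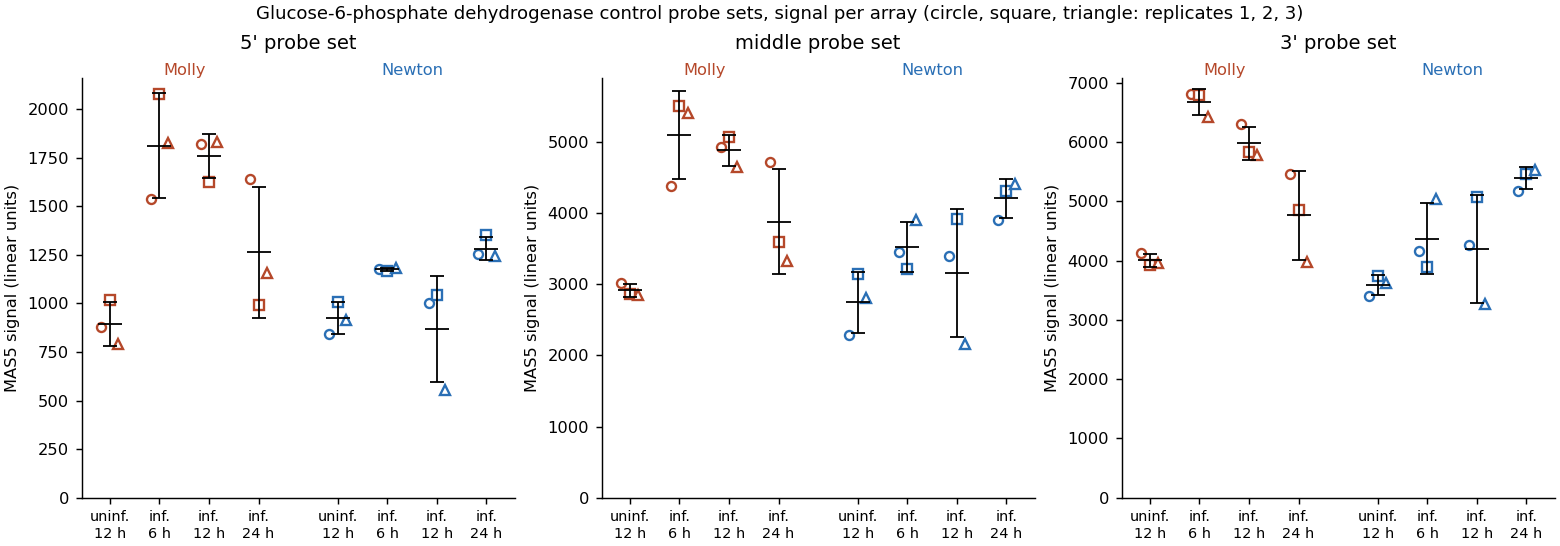
MAS5 signal in linear units (y axes, from 0) of the 5', middle and 3' probe sets on each of 24 arrays, by line and time after hatch (x axis), with horizontal bars for the mean and SD of 3 arrays. Molly stands highest at 6 and 12 h on each probe set, with 3' means of 6670 and 5975 against 4002 uninfested, and the triangle of Newton at 12 h, replicate 3, is low on each.

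In Newton, signal rose past the threshold only at 24 h and only at the 3' end and the middle, among the 3 times and 3 probe sets tested. The 3' probe set read 3407, 3736 and 3615 on uninfested arrays and 5178, 5458 and 5524 at 24 h. The middle probe set read 2292, 3143 and 2805 uninfested and 3898, 4308 and 4416 at 24 h. Both sets of infested values lay wholly above the uninfested ones.

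The change at 24 h was 1.50-fold at the 3' end (log2 0.59 ± 0.13, adjusted p = 0.00126) and 1.54-fold in the middle (log2 0.63 ± 0.17, adjusted p = 0.00692). These 2 calls stand beside 16.6% of tested probe sets called higher. The 5' probe set read 845, 1008 and 917 uninfested and 1253, 1350.4 and 1243 at 24 h, again with no overlap, so all 3 members lay apart upward, as did 24.7% of tested probe sets. Its log2 change of 0.48 (95% interval 0.078 to 0.87, adjusted p = 0.0651) missed the threshold, and it passed when only the 2 groups compared were fitted, with an adjusted p of 0.00597.

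At 6 h in Newton no member was called, beside 8.64% of tested probe sets called higher. The 3' probe set read 4163, 3896 and 5044, the middle one 3459, 3213 and 3908, and the 5' one 1176, 1165 and 1183. Each of these lay above all 3 uninfested Newton arrays, as did 19.8% of tested probe sets. The log2 changes were 0.28 (95% interval 0.016 to 0.54, adjusted p = 0.148), 0.37 (0.021 to 0.71, adjusted p = 0.149) and 0.35 (-0.047 to 0.75, adjusted p = 0.242) at the 3' end, middle and 5' end.

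At 12 h in Newton the arrays disagreed. The 3' probe set read 4257, 5072 and 3260, the middle one 3405, 3913 and 2164, and the 5' one 1004, 1044 and 555. Replicate 3 was the lowest of the group on all 3, by 0.34, 0.50 and 0.59 below the group mean on the log2 scale, and it was below every uninfested Newton array. That array also had the lowest 18S signal of its group, 1134 against 3398 and 2801, though Newton 24 h replicate 2 was lower, at 1073.5. The mean correlation of Newton 12 h replicate 3 with its own group, 0.957, was the lowest of any array. Replicate 2 of the same group was close to it, at 0.959.

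No member was called at 12 h in Newton, beside 10.8% of tested probe sets called higher. The log2 changes were 0.20 (adjusted p = 0.284), 0.17 (adjusted p = 0.53) and -0.14 (adjusted p = 0.668) at the 3' end, middle and 5' end. Without replicate 3 they were 0.37 (adjusted p = 0.0228), 0.42 (adjusted p = 0.0379) and 0.15 (adjusted p = 0.552), so the first 2 then passed and the third changed sign.

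**Figure D2:**
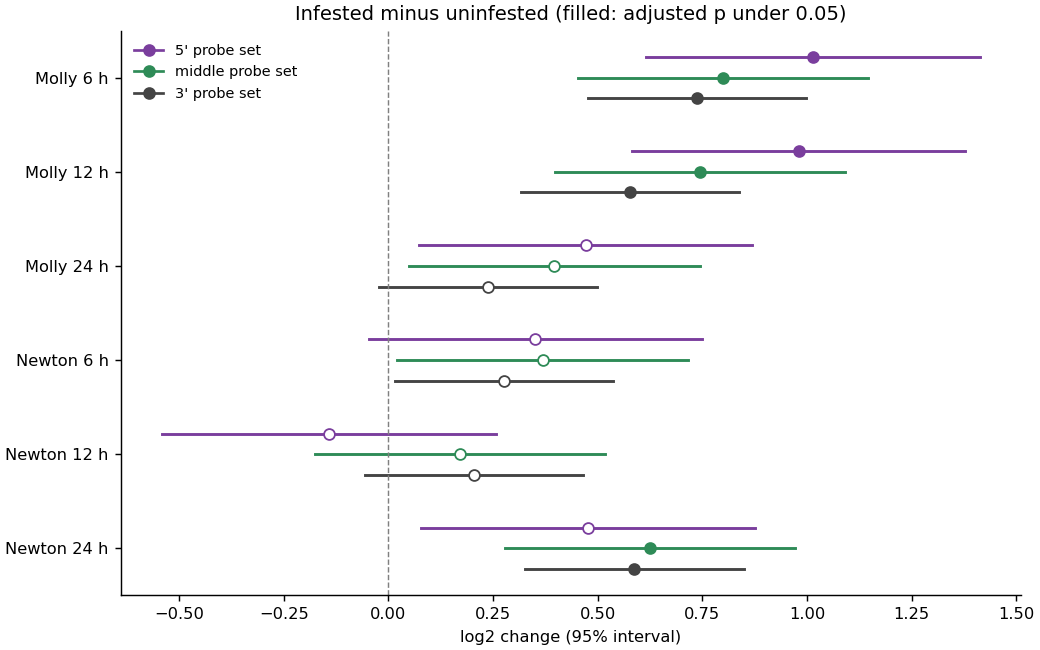
Log2 change of each probe set (colours) between infested and uninfested arrays of one line (x axis, with 95% intervals), by line and time (rows), with filled points where the adjusted p was under 0.05. Filled points appear for all 3 probe sets in Molly at 6 and 12 h and for the 3' and middle ones in Newton at 24 h, where the log2 changes were 0.59 and 0.63.

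The lines were then compared directly. Without larvae none of the 3 probe sets was called, beside 1.37% of tested probe sets called higher in Molly and 2.03% called lower. The log2 difference of Molly over Newton was 0.16 at the 3' end (95% interval -0.10 to 0.42, adjusted p = 0.572), 0.097 in the middle (-0.25 to 0.44, adjusted p = 0.837) and -0.048 at the 5' end (-0.45 to 0.35, adjusted p = 0.936). The 3' signal was nonetheless higher on each uninfested Molly array than on each Newton one, by a small margin, as was that of 14.9% of tested probe sets.

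With larvae at 6 and 12 h, all 3 probe sets were higher in Molly than in Newton and no array of one line overlapped the other. At 6 h the log2 differences were 0.62 ± 0.13 at the 3' end (adjusted p = 0.000724), 0.53 ± 0.17 in the middle (adjusted p = 0.0193) and 0.61 ± 0.19 at the 5' end (adjusted p = 0.0179). In that comparison 13.4% of tested probe sets were called higher in Molly and 18.8% did not overlap upward. The middle call was lost when any of 4 arrays was left out, Newton replicate 1 (0.52) or 2 (0.46) or Molly replicate 2 (0.47) or 3 (0.48), and the 5' call without Molly replicate 2 (0.51). Centring each array on its median gave 0.37 (adjusted p = 0.087) in the middle and 0.46 (adjusted p = 0.0702) at the 5' end.

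At 12 h the differences were 0.53 ± 0.13 at the 3' end (adjusted p = 0.00255), 0.67 ± 0.17 in the middle (adjusted p = 0.00396) and 1.07 ± 0.19 at the 5' end (adjusted p = 0.000206), the last a 2.11-fold higher signal in Molly. Here 13.4% of tested probe sets were called higher in Molly and 17.3% did not overlap upward. Without the low Newton replicate 3 the differences were 0.36, 0.42 and 0.78, with adjusted p-values of 0.0213, 0.0318 and 0.00104.

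At 24 h no difference between the lines passed the threshold. The log2 differences were -0.19 (95% interval -0.45 to 0.071, adjusted p = 0.299), -0.13 (-0.48 to 0.21, adjusted p = 0.621) and -0.054 (-0.45 to 0.34, adjusted p = 0.881) at the 3' end, middle and 5' end. No member was called, beside 13% of tested probe sets called lower in Molly.

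The response of Molly minus that of Newton, a difference of differences, asks whether infestation changed the signal by unequal amounts in the lines. At 12 h 1 of 3 probe sets was called, the 5' one, with a log2 difference of 1.12 ± 0.27 (adjusted p = 0.00414) and 11.4% of tested probe sets called higher. Without Newton 12 h replicate 3 it was 0.83 (adjusted p = 0.00776). The middle and 3' probe sets gave 0.57 (95% interval 0.082 to 1.06, adjusted p = 0.082) and 0.37 (0.0046 to 0.74, adjusted p = 0.134). Those values depended on single arrays. Without Newton 12 h replicate 2 they were 0.75 (adjusted p = 0.0194) and 0.52 (adjusted p = 0.0237), without Newton uninfested replicate 1 the middle one was 0.70 (adjusted p = 0.0442), and without Newton 12 h replicate 3 they were 0.32 and 0.20.

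At 6 h no difference in response was called, beside 10.7% called higher. The log2 differences were 0.46 (95% interval 0.092 to 0.83, adjusted p = 0.0655) at the 3' end, 0.43 (-0.059 to 0.92, adjusted p = 0.205) in the middle and 0.66 (0.10 to 1.23, adjusted p = 0.0828) at the 5' end. The 3' value passed without Newton 6 h replicate 3, at 0.57 (adjusted p = 0.0234). At 24 h they were -0.35 (-0.72 to 0.020, adjusted p = 0.193), -0.23 (-0.72 to 0.26, adjusted p = 0.564) and -0.0058 (-0.57 to 0.56, adjusted p = 0.993), with no member called beside 8.98% called lower.

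**Figure D3:**
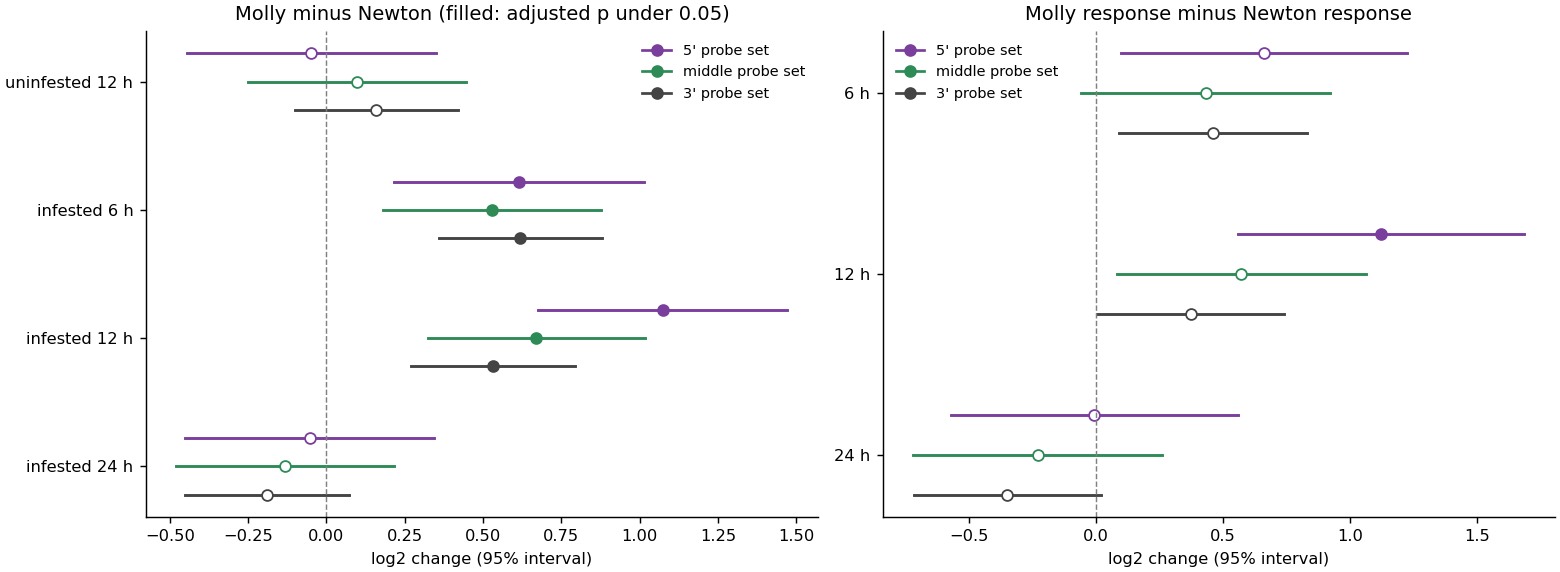
Left, log2 difference of Molly over Newton for each probe set (colours) in uninfested and infested sheaths. Right, Molly response minus Newton response at each time. Lines are 95% intervals and filled points have an adjusted p under 0.05. The 3 probe sets are filled on the left at 6 and 12 h, and on the right only the 5' probe set at 12 h, at 1.12, is filled.

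Within infested Molly no step between times was called. From 6 to 12 h the log2 changes were -0.16 (adjusted p = 0.559), -0.056 (adjusted p = 0.911) and -0.034 (adjusted p = 0.959) at the 3' end, middle and 5' end, beside 2.24% of tested probe sets called lower. Every 12 h array was below every 6 h array at the 3' end, as in 13.5% of tested probe sets, and the other 2 probe sets overlapped. From 12 to 24 h the changes were -0.34 (adjusted p = 0.0693), -0.35 (adjusted p = 0.171) and -0.51 (adjusted p = 0.0749), beside 8.05% called lower. The 3' values again did not overlap, as in 16.4% of tested probe sets. Without Molly 24 h replicate 1, the highest of its group, the 3' and 5' changes were -0.44 (adjusted p = 0.024) and -0.71 (adjusted p = 0.0127).

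Within infested Newton the later step went up. From 12 to 24 h the 5' signal rose by a log2 change of 0.62 ± 0.19 (adjusted p = 0.0399), the only member called, beside 5.35% of tested probe sets called higher. That call rested on single arrays: without Newton 12 h replicate 3 the change was 0.32 (adjusted p = 0.282), and the call was also lost without any 1 of the 24 h arrays, at 0.63, 0.58 and 0.64. The 3' probe set changed by 0.38 (adjusted p = 0.0512) and the middle one by 0.45 (adjusted p = 0.0816). The 3' and 5' groups did not overlap, as in 11.6% of tested probe sets. Without Newton 12 h replicate 2 the 3' and middle changes were 0.53 (adjusted p = 0.00476) and 0.63 (adjusted p = 0.0131).

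From 6 to 12 h in Newton the log2 changes were -0.072 (adjusted p = 0.882), -0.20 (adjusted p = 0.695) and -0.49 (adjusted p = 0.223) at the 3' end, middle and 5' end. No member was called, beside 1.48% called lower. At the 5' end every 12 h array was below every 6 h array, as in 7.46% of tested probe sets.

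Set in order over the 8 groups, the 3' signal was lowest in uninfested Newton, at 3586 ± 167 (SD, n = 3 arrays). It then ran through uninfested Molly (4002 ± 108), Newton at 12 h (4196 ± 908), Newton at 6 h (4368 ± 601), Molly at 24 h (4760 ± 744), Newton at 24 h (5387 ± 184) and Molly at 12 h (5975 ± 284) to Molly at 6 h (6670 ± 224). Neighbours from uninfested Molly up to Newton at 24 h overlapped, and the lowest group and the 2 highest stood clear of their neighbours. The lowest group, at 3407 to 3736, was not clear of all groups, since Newton at 12 h ran from 3260 to 5072.

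On the middle probe set the order ran from uninfested Newton (2747 ± 429) and uninfested Molly (2914 ± 94.1) through Newton at 12 h (3161 ± 900), Newton at 6 h (3527 ± 353), Molly at 24 h (3878 ± 737) and Newton at 24 h (4207 ± 273) to Molly at 12 h (4882 ± 220) and Molly at 6 h (5096 ± 623). The only gap between neighbours was that between Newton at 24 h and Molly at 12 h. Groups farther apart in the order still overlapped there. The lowest Molly array at 6 h, 4379, was below the highest Newton array at 24 h, 4416. The highest Molly array at 24 h, 4716, was above the lowest at 12 h, 4643.

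On the 5' probe set Newton at 12 h (867 ± 271), uninfested Molly (895 ± 114) and uninfested Newton (923 ± 81.8) were lowest and overlapped. Newton at 6 h (1174 ± 9.08), Molly at 24 h (1263 ± 338) and Newton at 24 h (1282 ± 59.3) followed, and Newton at 6 h was clear of uninfested Newton. Molly at 12 h (1759 ± 115) and Molly at 6 h (1812 ± 270) were highest and overlapped, clear of Newton at 24 h. The wide spread of Molly at 24 h, from 989.9 to 1641, overlapped groups at both ends of this order.

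The 3 probe sets moved together from array to array. Over 24 arrays the log2 signals of the 3' and middle probe sets correlated at Pearson's r = 0.952 and Spearman's rho = 0.949, middle and 5' at 0.935 and 0.926, and 3' and 5' at 0.879 and 0.871. Each permutation p was 1e-05, the smallest that 100000 resamples can give, and adjustment over 3 pairs leaves it there. Probe sets that read the same target in the same RNA were bound to be related, so these p-values add no support. The arrays fall into 8 groups and were permuted across them, so both r and p include the differences between groups. Without the 2 arrays farthest from the median, r was 0.945, 0.924 and 0.854 in the same order. Within Molly (n = 12) it was 0.935, 0.956 and 0.892, and within Newton (n = 12) 0.954, 0.887 and 0.789. With the group means removed, r was 0.845, 0.838 and 0.649.

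The ratio of 3' to 5' signal is a usual reading of RNA integrity, since labelling starts at the 3' end. Its log2 value was 2.17 ± 0.20 (SD, n = 3) in uninfested Molly and 1.89 ± 0.23, 1.77 ± 0.094 and 1.93 ± 0.31 at 6, 12 and 24 h. In Newton it was 1.96 ± 0.063 uninfested and 1.89 ± 0.18, 2.31 ± 0.24 and 2.07 ± 0.072 at the same times. In Molly 7 of 9 infested arrays were below all uninfested ones and none was above them. In Newton 7 of 9 were above all uninfested ones and 2 were below.

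The 3' to 5' ratio did not differ past the threshold by infestation in Molly (log2 -0.30, two-sided exact permutation p = 0.032, adjusted p = 0.28 over 9 tests) or in Newton (0.13, exact permutation p = 0.39, adjusted p = 0.5). Between the lines the difference was -0.12, with an exact permutation p of 0.24 and an adjusted p of 0.35. These tests pooled the infested times within a line and averaged the line difference over conditions, so no single time was tested. At 12 h the 3' to 5' ratio ran from 1.66 to 1.84 in infested Molly and from 2.08 to 2.55 in infested Newton, without overlap. In the other conditions the lines overlapped. Neither of the other ratios passed in any of the 3 comparisons. The log2 ratio of 3' to middle differed by -0.13 in Molly, -0.032 in Newton and -0.011 between the lines, and that of middle to 5' by -0.18, 0.16 and -0.11. The smallest p these designs allow is 0.0045 within a line and 1.3e-05 between the lines.

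The 3' to 5' ratios of 6 other wheat control genes moved with infestation by unequal amounts, and these differences of means were not tested. The log2 ratio of sucrose synthase differed by -0.32 in Molly and -0.74 in Newton, and that of CYP86 by -0.54 in both. Actin differed by -0.050 and 0.78, ef1a by 1.44 and -0.074, GAPDH by -0.36 and 0.62, and ubiquitin by 0.12 and -0.017, in Molly and Newton in that order. Their part in the results for glucose-6-phosphate dehydrogenase was not tested.

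**Figure D4:**
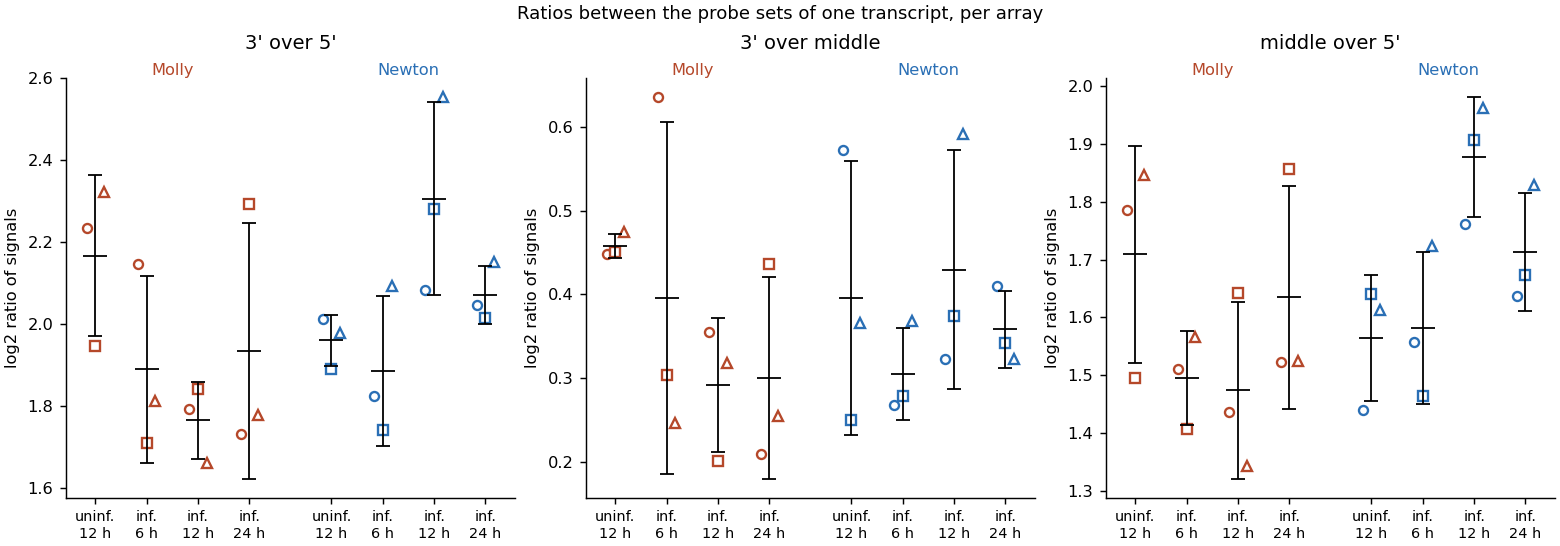
Log2 ratio of signals (y axes, not starting at 0) between pairs of the 3 probe sets on each array, by line and time after hatch (x axis), with bars for the mean and SD of 3 arrays. The 3' to 5' ratio averages 2.17 in uninfested Molly and 1.77 in Molly at 12 h, and the groups overlap in most places.

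The annotated gene with the most similar pattern over the arrays was LOC542778, on 1 of its 2 annotated probe sets. Of 965 tested probe sets with 1 gene symbol it had the highest Pearson correlation with each member over 24 arrays, 0.976 with the 3', 0.943 with the middle and 0.905 with the 5' probe set. The annotation used here gives it no title. It may be the same gene as the members or a copy of it, in which case its values repeat theirs, and this was not tested. Its signal was 7506 ± 212 (SD, n = 3) in uninfested Molly and 12350 ± 742, 11370 ± 150.0 and 9286 ± 1786 at 6, 12 and 24 h. In Newton it was 6770 ± 122 uninfested and 8189 ± 803, 7642 ± 1791 and 10020 ± 807 at those times.

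Next after it came Glc1 (r = 0.923) and LOC542813 (0.918) for the 3' probe set, LOC542813 (0.905) and LOC100037600 (0.893) for the middle one, and LOC100037600 (0.874) and LOC100125732 (0.870) for the 5' one. Among all tested probe sets, the highest r was 0.976 for the 3' member (LOC542778 again), 0.951 for the middle one and 0.951 for the 5' one, the last 2 from different probe sets that the annotation pairs with no gene. Correlations above 0.9 were found for 163, 108 and 21 of the 36719 other tested probe sets with the 3', middle and 5' members. These figures are descriptions over arrays that share groups and scaling, and they carry no test.

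Of the other enzymes that supply NADPH in the cytosol, GAPN, the non-phosphorylating NADP-dependent glyceraldehyde-3-phosphate dehydrogenase, was the only one found by symbol, with 1 tested probe set. Its signal in uninfested Molly was 119, 85.1 and 64.0, at or near the level of the brightest tag control, so the sizes of its changes from that group are uncertain. It read 341, 420.1 and 208 at 6 h, 186, 204 and 269 at 12 h, and 452, 634 and 723 at 24 h. All 9 infested Molly arrays were above the uninfested ones, and the log2 changes were 1.84, 1.33 and 2.77, with adjusted p-values of 3.5e-05, 0.00111 and 8.22e-07.

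In Newton GAPN read 213, 241 and 186 uninfested. Infested arrays read 90.6, 136 and 129 at 6 h, 115, 111 and 78.0 at 12 h, and 451, 234 and 343 at 24 h. The arrays at 6 and 12 h lay close to the brightest tag control, and 1 of those at 12 h was below it, so the sizes of these changes are uncertain too. The fitted change at 12 h was -1.09 on the log2 scale (adjusted p = 0.0113, or 0.0504 without Newton uninfested replicate 2). At 6 h it changed by -0.86 (adjusted p = 0.0484), a call lost in each of 6 fits that left out an array. At 24 h its change of 0.64 missed the threshold (adjusted p = 0.0996) and was 0.89 (adjusted p = 0.04) without Newton 24 h replicate 2. The glucose-6-phosphate dehydrogenase signals of infested Newton were not lower than those of uninfested Newton past the threshold at any time.

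Sugar phosphate enzymes, a list of 7 genes (PFK, FBP, Pgk-1, PRK, PMM, GAPN and AGP-S) with 8 tested probe sets, had calls in both directions. The list includes GAPN, so its calls given above are counted again here. In Molly 1 probe set rose and 1 fell at 6 h, 1 rose at 12 h, and 1 rose and 1 fell at 24 h. In Newton 3 fell at 6 h, 1 rose and 1 fell at 12 h, and none was called at 24 h. Among all tested probe sets, the shares called higher and lower in Molly were 18.3% and 19.5% at 6 h, 16.4% and 17.7% at 12 h, and 11.9% and 12.1% at 24 h. In Newton they were 8.64% and 6.53% at 6 h, 10.8% and 7.77% at 12 h, and 16.6% and 13.8% at 24 h. The list's median log2 change ran from -0.11 to 0.21 over the 6 comparisons, against -0.018 to 0.069 for all tested probe sets. GAPN was the only member that rose in Molly, and AGP-S, the small subunit of ADP-glucose pyrophosphorylase, the only one that fell there, a call lost at 24 h without Molly uninfested replicate 2 (-0.23, adjusted p = 0.0532).

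The calls in Newton rested on single arrays and settings. At 6 h the fall of FBP was -0.62 (adjusted p = 0.0394) and was lost without any of 5 arrays, most so without Newton 6 h replicate 1 (-0.39, adjusted p = 0.222). That of PRK was -0.61 (adjusted p = 0.0277) and was lost without any of 4 arrays (-0.39, adjusted p = 0.177, without the same replicate). Both were lost when only the groups compared were fitted, with adjusted p-values of 0.13 and 0.0773. The rise of AGP-S at 12 h was 0.20 (adjusted p = 0.046) and was lost without any of 5 arrays and under 5 other settings.

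Enzymes of peroxide and glutathione chemistry, 7 genes (CAT1, PER1, TaPrx1, GSTZ1, lgul, PCS1 and Trx-M) with 13 tested probe sets, had calls in both directions, to be read beside the shares just given. In Molly 3 rose and 4 fell at 6 h, 3 rose at 12 h, and 4 rose and 4 fell at 24 h. In Newton 1 fell at 6 h, 2 rose at 12 h, and 2 rose and 2 fell at 24 h. The median log2 change lay between -0.31 and 0.021. Apart from CAT1, these calls were not recomputed under other settings. CAT1, a catalase, which breaks down hydrogen peroxide, rose at 24 h in both lines, by 1.56 (adjusted p = 0.000756) in Molly and 1.34 (adjusted p = 0.00204) in Newton on the log2 scale. It was singled out after its values were seen, and at 24 h as many probe sets of the list fell as rose in each line.

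**Figure D5:**
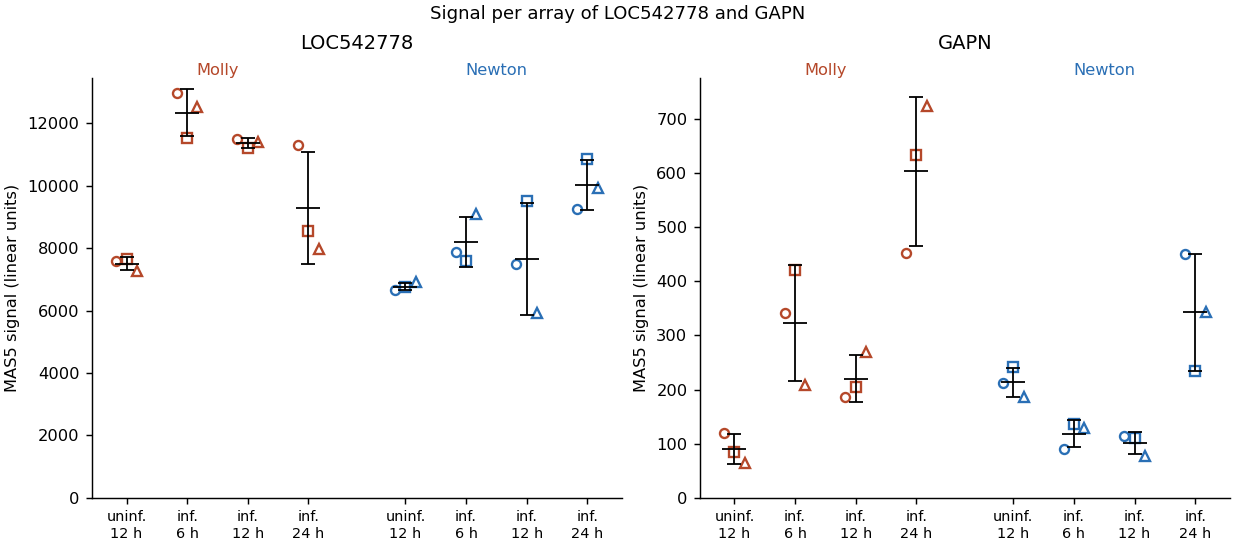
MAS5 signal in linear units (y axes, from 0) of LOC542778 and GAPN on each array, by line and time after hatch (x axis), with bars for the mean and SD of 3 arrays. LOC542778 is highest in Molly at 6 h, at 12350, and GAPN is highest in Molly at 24 h, at 603, and lowest in uninfested Molly, at 89.4.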

How the data were processed

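The deposited values are linear signal intensity per probe set, which the authors produced with MAS5, per the submitters' processing notes; its version is not given in the sources used here. Of 61290 probe sets, 61179 wheat probe sets and 25 wheat controls were kept (names starting AFFX-Ta- or AFFX-Ta_, without the AFFX-Tae spike-ins). The 40% with the lowest mean log2 signal were left out (signal 44.8 at that limit), leaving 36722; all 3 members passed.

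A linear model of log2 signal with group means and an intensity trend was fitted in limma 3.58.1 (R 4.3.3; 16 residual and 4.49 prior degrees of freedom), and tested on simulated data first. Two-sided p-values were adjusted by Benjamini-Hochberg, separately for each comparison. The number of arrays limits the precision. Ratios were tested by exact permutation over arrays. Alternatives were the filter, an offset of 50, median centring, quantile normalization, only the groups compared and no trend. The robust option of limma's variance estimate, a replicate block and leaving out each array were also run.

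The members and lists were chosen with earlier results of these data known. Genes named besides the members were, for each member, the 3 annotated probe sets of highest correlation and the best of all, and list members called after infestation. Of 5 pathway lists only other NADPH sources matched a probe set, 1 of them; the lists of sugar phosphate and redox enzymes were added after the annotation was read, and CAT1 was singled out after its values were seen. Same-numbered replicates were not paired: over 28 pairs of groups, the correlation of their deviations was -0.22 to 0.18.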

Additional observations from a re-analysis of the deposited data

Results flagged for a closer look

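The response of the 5' probe set at 12 h differed between the lines, with a log2 difference of Molly over Newton responses of 1.12 (adjusted p = 0.00414, limma's interaction contrast). All 3 infested Molly arrays were above the uninfested ones, and 1 of 3 infested Newton arrays was above them. The difference was 0.83 (adjusted p = 0.00776) without Newton 12 h replicate 3, the array with the lowest 18S signal of its group, whose part in the result was not tested. The middle and 3' probe sets of the same target were not called in this limma contrast, at 0.57 (adjusted p = 0.082) and 0.37 (adjusted p = 0.134). The mean log2 ratio of 3' to 5' signal was 2.17 uninfested and 1.77 at 12 h in Molly, and 1.96 and 2.31 in Newton. That ratio is formed from the same 3' and 5' signals, so it restates the gap between the 5' and 3' response differences. The part of RNA integrity in the result was not tested either.

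GAPN also responded differently in the lines, with log2 differences of 2.70 at 6 h, 2.41 at 12 h and 2.13 at 24 h (limma's interaction contrasts, adjusted p = 0.000103, 0.000213 and 0.00109). Signal near the tag controls in uninfested Molly and in infested Newton at 6 and 12 h makes these sizes uncertain, and the same uninfested arrays enter all 3. Without larvae GAPN was already lower in Molly, with a log2 difference of Molly over Newton of -1.29 (limma, adjusted p = 0.0159). That starting difference is part of each response difference. With larvae the log2 differences of Molly over Newton were 1.41, 1.12 and 0.84 at 6, 12 and 24 h (limma, adjusted p = 0.00081, 0.005 and 0.0377).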

How the results depend on the processing

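The rises in Molly at 6 and 12 h, the 3' and middle rises in Newton at 24 h, the line differences at 12 h and the 5' response difference at 12 h kept their direction and stayed past the threshold in every alternative and with each array left out. Fitting only the groups compared brought past the threshold the 5' change in Newton at 24 h (0.48, adjusted p = 0.00597) and the response differences at 6 h at the 3' end (0.46, adjusted p = 0.0156) and 5' end (0.66, adjusted p = 0.0142); quantile normalization did so for the 3' one (0.54, adjusted p = 0.0309), and an offset of 50 for the 3' step from 12 to 24 h in Newton (0.38, adjusted p = 0.0495). The 5' step from 12 to 24 h in Newton was lost with no filter or only the groups compared (0.62, adjusted p = 0.0571 and 0.193), with no intensity trend (0.62, adjusted p = 0.06) and with centring on the median (0.60, adjusted p = 0.0569). Centring also lost the middle (0.37) and 5' (0.46) line differences at 6 h and turned the sign of the middle (0.042) and 5' (0.063) steps from 6 to 12 h in Molly. The cause was not tested.

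Centring moved the median log2 change of all tested probe sets from 0.021, -0.015 and -0.018 to -0.23, -0.17 and -0.16 in Molly at 6, 12 and 24 h, and the members' changes in Molly to 0.48, 0.54 and 0.76 at 6 h and 0.42, 0.59 and 0.82 at 12 h (3', middle, 5'). The share of calls that were higher went from 48.4%, 48.2% and 49.6% to 25.8%, 31% and 29.3% in Molly, from 57% to 43.3% in Newton at 6 h, from 45.5%, 45.6% and 48.2% to 26.2%, 33% and 36.8% for the response differences, from 40.3% to 53.9% for the uninfested lines, from 43.4% to 26.6% and 33.1% for the infested lines at 6 and 12 h, and from 55.5% to 76.8% for Molly from 6 to 12 h.

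With each array left out, log2 changes at the 3' end, middle and 5' end ranged as follows. Molly at 24 h gave 0.13 to 0.36, 0.25 to 0.50 and 0.27 to 0.63. Newton at 12 h gave 0.056 to 0.37, -0.0050 to 0.42 and -0.30 to 0.15. Response differences were 0.38 to 0.57 (3') at 6 h, 0.20 to 0.52 (3') and 0.32 to 0.75 (middle) at 12 h, and -0.21 to 0.15 (5') at 24 h. Line differences were -0.028 to 0.20 (middle) and -0.14 to 0.036 (5') uninfested, 0.46 to 0.63 (middle) and 0.51 to 0.73 (5') at 6 h, and -0.26 to 0.11 (5') at 24 h. The step from 6 to 12 h was -0.16 to 0.0039 (middle) and -0.15 to 0.069 (5') in Molly, and -0.22 to 0.098 (3') and -0.37 to 0.054 (middle) in Newton. The step from 12 to 24 h was -0.44 to -0.21 (3') and -0.71 to -0.35 (5') in Molly, and 0.21 to 0.53, 0.20 to 0.63 and 0.32 to 0.78 in Newton. The log2 ratio of 3' to middle ranged from -0.11 to 0.056 for infestation in Newton and -0.041 to 0.011 between the lines. LOC542778 in Newton at 12 h was -0.022 without replicate 2.

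With only the groups compared, calls over all probe sets went from 6829 to 4014 for Newton at 12 h, 1247 to 2692 for the uninfested lines, 6109 to 4043 for Molly from 12 to 24 h, 919 to 232 for Newton from 6 to 12 h and 4290 to 667 from 12 to 24 h. With an array left out they ranged from 4501 to 7804, 340 to 881, 3704 to 6913, 503 to 1084 and 1909 to 6309 in the same order, and from 913 to 1514 against 1850 for Molly from 6 to 12 h. A replicate block changed no member's call; the log2 change at the 3' end in Molly at 6 h was 0.74 with the block, and GAPN in Newton at 6 h was lost (-0.86, adjusted p = 0.0607).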
